A study of Mus musculus with 10 samples.

Results

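The genes described here are those of the mouse whose current symbol starts with Nduf, which encode the nuclear subunits of respiratory complex I and part of its assembly machinery. Ndufa4 was left out, because its product is now counted with cytochrome c oxidase. Of 53 such symbols in the mouse annotation, 42 had an array probe set assigned to that gene alone, out of 19938 genes with a value in all. They comprised 34 of 37 structural subunit genes, 7 of 8 assembly factor genes and Ndufa4l2, a paralog of Ndufa4 that belongs to neither class. The remaining structural genes, the assembly factor gene Ndufaf8 and 7 paralogs or pseudogenes were not analysed here. The probe sets of Ndufb4 also match Ndufb4b, so neither gene was given a value. Where a gene had more than 1 probe set, the brightest was used.

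Complex I takes electrons from NADH, passes them along a chain of iron-sulfur clusters to ubiquinone, and pumps protons across the inner mitochondrial membrane. Its core subunits carry out the catalysis. The accessory subunits surround the core in a peripheral arm that reaches into the matrix and a membrane arm. Assembly factors help build the modules and leave before the complex is complete. In brain, where most ATP comes from oxidative phosphorylation, inherited defects of complex I are a known cause of encephalopathy such as Leigh syndrome.

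The 10 arrays came from 5 transgenic mice (Tg) and 5 wild-type littermates (WT), all untreated adult males with a C57Bl/6J background, and each array held RNA from the whole brain of 1 mouse. The Tg mice overexpress Glo1, glyoxalase 1, from a bacterial artificial chromosome. The sources used here do not name the line or its founders. Values are the authors' log2 expression values, and each difference is the Tg mean minus the WT mean on that scale. Neuronal, astrocytic and oligodendrocytic markers were bright on all arrays, as for brain tissue: the mean of 7 neuronal markers lay between 12.12 and 12.18 in WT and between 12.14 and 12.17 in Tg.

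WT replicate 2 stood apart from the other arrays. The mean of 10 measured cerebellar markers was 8.53 there, against 10.68 to 10.95 on the other 9 arrays, and 9 of the 10 markers were lowest on it. Gabra6, a receptor subunit of cerebellar granule cells, read 6.03 there and at least 10.84 elsewhere. Alas2, a gene of red blood cell precursors, read 9.66 on it, above the other 9 arrays, and the mean of 5 striatal markers was 10.90 against 10.59 to 10.68. In whole tissue, fewer cells of a type and less RNA per cell cannot be told apart. Leaving it out moved many small differences, so the main values are given with and without it.

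The first comparison asked whether complex I transcripts differ between Tg and WT brain. None of the 42 genes passed the limma threshold of an adjusted p of 0.05, against 10 of 28944 probe sets in all (0.0345%). At an unadjusted p under 0.05, 0 of the 42 passed, against 2.21% of all probe sets, and 0 of 42 had groups that did not overlap, against 0.46%. Shares were lower among the 8683 brightest probe sets, where most members lie. Of these, 69 had an unadjusted limma p under 0.05 and 43 had groups that did not overlap. Estimates ran from a Tg level 0.923 times that of WT for Ndufaf6 to 1.07 times for Ndufb3. The 95% intervals of all 42 genes together spanned folds of 0.84 to 1.17. Differences within these intervals could not be told from 0 with 5 arrays per group. By contrast Ndufa4, left out by the rule, fell by 0.79 log2 units on the same arrays, from 11.08 ± 0.040 to 10.29 ± 0.095 (SD, n = 5 per group; limma adjusted p = 3.67e-05).

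Structural subunits and assembly factors had nearly the same median difference. It was -0.012 over the 34 structural genes, of which 15 were higher and 19 lower in Tg. Over the 7 assembly factors it was -0.010, with 2 higher and 5 lower. The median over all probe sets was -0.0031, and over the brightest 30% of probe sets, where most members lie, it was -0.014. Without WT replicate 2 the medians were -0.016 for structural genes and -0.044 for assembly factors. Those of the bright probe sets and of all probe sets were then -0.024 and 0.0083. Lower in Tg were 21 of 34 structural genes and 6 of 7 assembly factors, against 68.7% of bright and 45.8% of all probe sets. Again 0 of 42 passed after adjustment, against 0.038% of all probe sets. The sign of the difference turned for 7 of the 42: Ndufa7 (-0.038 to 0.027), Ndufa12 (0.014 to -0.0097), Ndufab1 (0.022 to -0.037), Ndufaf1 (0.021 to -0.052), Ndufs7 (0.021 to -0.020), Ndufv2 (0.0067 to -0.026) and Ndufv3 (-0.016 to 0.0052). At an unadjusted p under 0.05 the count was then 1 of 42, against 11% of all probe sets and 420 of the 8683 bright ones. Again 0 of 42 had groups that did not overlap, against 3.1% of all probe sets.

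**Figure D1:**
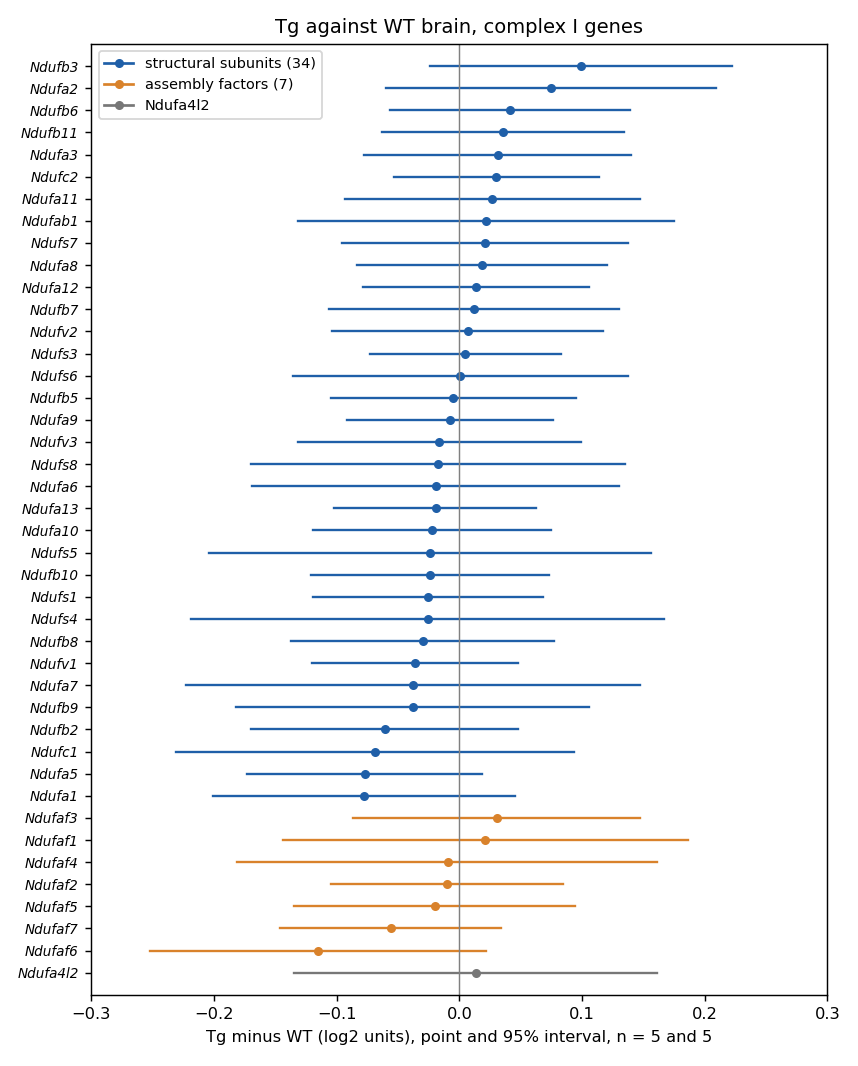
Tg minus WT difference in log2 units (horizontal axis) for each of the 42 genes (vertical axis), as a point with its 95% interval from limma, 5 arrays per group. Each interval includes 0, and estimates lie between -0.115 for Ndufaf6 and 0.0991 for Ndufb3.

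The core subunits had a median SD within genotype of 0.0629, the lowest of the 4 structural groups. It was 0.069 for distal and 0.0714 for proximal membrane arm genes, and 0.0991 for peripheral accessory genes. The core was also the brightest of these groups, and the groups were not compared at like brightness. Of 6 core subunits measured, all lay in the upper 30% of probe sets by brightness, and their differences lay between -0.036 and 0.021. Ndufv1, which binds NADH and the flavin, read 10.95, 11.00, 10.94, 10.97 and 10.93 in the WT mice and 10.94, 10.98, 10.92, 10.91 and 10.86 in the Tg mice. Its values overlapped, with a difference of -0.036 (95% interval -0.12 to 0.048). Ndufv2, an iron-sulfur subunit beside Ndufv1, read 12.32, 12.17, 12.34, 12.31 and 12.37 in WT and 12.33, 12.30, 12.38, 12.35 and 12.19 in Tg. Here WT replicate 2 and Tg replicate 5 were the low arrays, and the other 8 stayed between 12.30 and 12.38.

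Ndufs1, the largest subunit and a carrier of iron-sulfur clusters, averaged 10.77 ± 0.049 in WT and 10.74 ± 0.056 in Tg (SD, n = 5 per group), a difference of -0.026 (-0.12 to 0.068). Ndufs3, a core subunit of the module that passes electrons to ubiquinone, was the steadiest of all members. It read 11.34, 11.36, 11.34, 11.32 and 11.27 in WT and 11.33, 11.34, 11.33, 11.34 and 11.30 in Tg, a difference of 0.0046 (-0.073 to 0.083). Ndufs7, which holds the last iron-sulfur cluster before ubiquinone, averaged 12.58 ± 0.10 in WT and 12.60 ± 0.051 in Tg (SD, n = 5 per group). Its difference of 0.021 became -0.020 without WT replicate 2, which read 12.42. Ndufs8, another iron-sulfur subunit, averaged 11.50 ± 0.10 and 11.48 ± 0.13 (SD, n = 5 per group), a difference of -0.017 (-0.17 to 0.14).

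Among the accessory subunits of the peripheral arm, 3 genes were higher and 6 lower in Tg, with a median of -0.016 (-0.0097 without WT replicate 2). Ndufa5 had the lowest p of these, although its values overlapped between the groups. It read 9.64, 9.73, 9.66, 9.74 and 9.66 in WT and 9.65, 9.54, 9.56, 9.69 and 9.61 in Tg. The difference was -0.077 (SE 0.044, exact permutation p = 0.0794, limma adjusted p = 1.0), and -0.067 without WT replicate 2. Ndufs4, whose loss in mice causes a Leigh-like encephalopathy, was the most variable structural gene. It ranged from 11.68 on WT replicate 2 to 12.10 on WT replicate 3, and from 11.76 to 12.09 in Tg. Its difference was -0.026 (-0.22 to 0.17), and -0.093 without WT replicate 2.

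In the proximal part of the membrane arm, 4 genes were higher and 5 lower, with a median of -0.020 (-0.0036 without WT replicate 2). Ndufa1, a small X-linked membrane subunit, had the most negative structural difference, -0.078 (SE 0.056, exact permutation p = 0.246, limma adjusted p = 1.0). Its WT values were 9.01, 9.23, 9.13, 8.99 and 9.0, and its Tg values 8.99, 9.03, 9.01, 8.89 and 9.05. WT replicate 2 was the highest, and without it the difference was -0.038. Ndufc2 was the brightest member at 13.13 ± 0.042 in WT and 13.16 ± 0.032 in Tg (SD, n = 5 per group), a difference of 0.030 (-0.053 to 0.11). Ndufs5 was the 1 member with an unadjusted p under 0.05 once WT replicate 2 was left out (limma unadjusted p = 0.0461, adjusted p = 0.449). It was singled out after its values were seen. Its difference was then -0.11, and -0.024 with that array, where it read 9.37 against 9.72 to 9.84 on the other WT arrays and 9.58 to 9.77 in Tg.

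The distal part of the membrane arm had 4 genes higher and 5 lower, with a median of -0.0051 (-0.012 without WT replicate 2). Ndufb3 had the largest positive difference of all members and was also the dimmest structural gene. It read 8.70, 8.52, 8.66, 8.48 and 8.69 in WT and 8.76, 8.75, 8.59, 8.73 and 8.72 in Tg. Tg replicate 3 fell within the WT range and the other 4 exceeded every WT value. The difference was 0.099 (SE 0.056, 95% interval -0.024 to 0.22, exact permutation p = 0.127, limma adjusted p = 1.0). Ndufb5 averaged 11.09 ± 0.048 in WT and 11.08 ± 0.072 in Tg (SD, n = 5 per group), a difference of -0.0051. Ndufab1, the mitochondrial acyl carrier protein that is also a subunit, differed by 0.022 (-0.13 to 0.17), and by -0.037 without WT replicate 2.

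Among the assembly factors, Ndufaf6 had the most negative difference of all members and was the dimmest of the class. It read 7.72, 7.81, 7.83, 7.94 and 7.63 in WT and 7.68, 7.79, 7.71, 7.58 and 7.60 in Tg. The groups overlapped, and the difference was -0.115 (SE 0.063, 95% interval -0.25 to 0.022, exact permutation p = 0.119, limma adjusted p = 1.0). Ndufaf7, an arginine methyltransferase needed early in assembly, was the least variable factor. It read 8.84, 8.97, 8.95, 8.95 and 8.87 in WT and 8.91, 8.82, 8.87, 8.88 and 8.82 in Tg. Its difference was -0.056 (SE 0.041, exact permutation p = 0.0873, limma adjusted p = 1.0).

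Ndufaf3, which acts early with Ndufaf4, was the brightest factor and had the largest positive difference of the class, 0.031 (-0.086 to 0.15), from 10.52 ± 0.075 to 10.55 ± 0.085 (SD, n = 5 per group). That difference rested on single arrays: it was 0.0012 without Tg replicate 2, where it was also the class median of that run, and 0.060 without WT replicate 2. Ndufaf4 was the most variable factor, from 9.05 to 9.33 in WT and from 9.04 to 9.40 in Tg, with a difference of -0.0097 (-0.18 to 0.16). Ndufaf1, a member of the intermediate assembly complex of the membrane arm, differed by 0.021 and by -0.052 without WT replicate 2. Ndufaf2, a paralog of Ndufa12, differed by -0.010 (-0.11 to 0.084), and Ndufaf5, which hydroxylates Ndufs7, by -0.020 (-0.14 to 0.095). Ndufa4l2, outside both classes, averaged 7.46 ± 0.14 in WT and 7.48 ± 0.067 in Tg (SD, n = 5 per group), a difference of 0.013, and 0.075 without WT replicate 2.

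Genes that work with complex I likewise had no call. Of 12 measured assembly factors without an Nduf name, such as Acad9, Ecsit, Timmdc1 and Foxred1, 0 passed, 2 were higher and 10 lower, with a median of -0.030 and -0.037 without WT replicate 2. Nubpl, which delivers iron-sulfur clusters to the complex, had the lowest p of these at -0.104 (-0.24 to 0.035). The mitochondrially encoded ND3, the 1 such subunit with a value, differed by 0.028 (-0.074 to 0.13). For the other complexes, 0 of 8 genes of complex II, 0 of 11 of complex III, 0 of 9 of complex IV and 0 of 15 of complex V passed, with medians of -0.011, -0.019, -0.0034 and 0.010 (-0.0031, -0.024, -0.012 and 0.014 without WT replicate 2). Their lowest p values belonged to Sdhd (0.096), Uqcrc1 (-0.046), Cox6b1 (-0.041) and Atp5e (0.063, all differences in log2 units). Of 9 genes of mitochondrial mass, 0 passed, and the median was 0.0035 with 5 higher and 4 lower. Without WT replicate 2 it turned to -0.019, with 1 higher and 8 lower. Phb2, a prohibitin, was at -0.047.

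Regulators of mitochondrial genes gave 0 of 11 past the adjusted threshold, with a median of -0.022 (-0.047 without WT replicate 2). Gabpb1, a subunit of the ETS-family activator GABP, was the 1 of 11 with an unadjusted p under 0.05, against 2.21% of all probe sets. On WT replicate 2 it read 8.28, within the 8.21 to 8.38 of the other arrays. It averaged 8.33 ± 0.053 in WT and 8.22 ± 0.011 in Tg (SD, n = 5 per group), a difference of -0.102 (-0.19 to -0.018, limma adjusted p = 1.0). Nrf1, an activator of many respiratory genes, differed by -0.040 (-0.14 to 0.056), and Ppargc1a, its coactivator, by -0.0041 (-0.15 to 0.14).

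Members were also placed by gene order against Glo1, on chromosome 17, and Foxp2, a gene of chromosome 6 that fell in Tg as Ndufa4 did (-0.64, limma adjusted p = 4.94e-05). The members lie on 15 chromosomes, 3 of them on chromosome 6 and 6 on chromosome 17. Ndufa5 was the nearest to Foxp2, with 30 measured genes between, and had the difference of -0.077 given above. Ndufb2 followed after 147 genes and differed by -0.061 (-0.17 to 0.048), and Ndufa9 after 843 genes with -0.0078. Ndufv3 was the nearest to Glo1, with 14 measured genes between, and averaged 9.38 ± 0.10 in WT and 9.36 ± 0.043 in Tg (SD, n = 5 per group). The difference for Ndufv3 was -0.016 (-0.13 to 0.099), and 0.0052 without WT replicate 2.

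The second comparison set the classes side by side in level and spread. The brightness of different probe sets also depends on their probes, so it ranks array signal and not transcript number. The median log2 value was 10.75 for structural genes (8.66 to 13.14) and 8.89 for assembly factors (7.73 to 10.54), against 7.98 over all probe sets. Of the structural genes 30 of 34 lay in the upper 30% of probe sets, and of the assembly factors 3 of 7. The median SD within genotype was 0.0726 log2 units for structural genes and 0.0804 for assembly factors. It was 0.102 over all probe sets and 0.0805 over the bright ones. Without WT replicate 2 these 4 medians were 0.0638, 0.0701, 0.0841 and 0.0658.

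Spread depended on brightness, so each member was also set against probe sets of like brightness, in 10 equal bins. The median SD was 0.1002 in the dimmest bin, rose to 0.126 in bin 3 and fell from there to 0.0724 in the brightest. The SD lay below the median of the bin for 21 of 34 structural genes and 5 of 7 assembly factors, with median ratios of 0.923 and 0.914. SDs ran from 0.0266 for Ndufs3 to 0.156 for Ndufs4 among structural genes, and from 0.0475 for Ndufaf7 to 0.135 for Ndufaf4 among assembly factors.

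**Figure D2:**
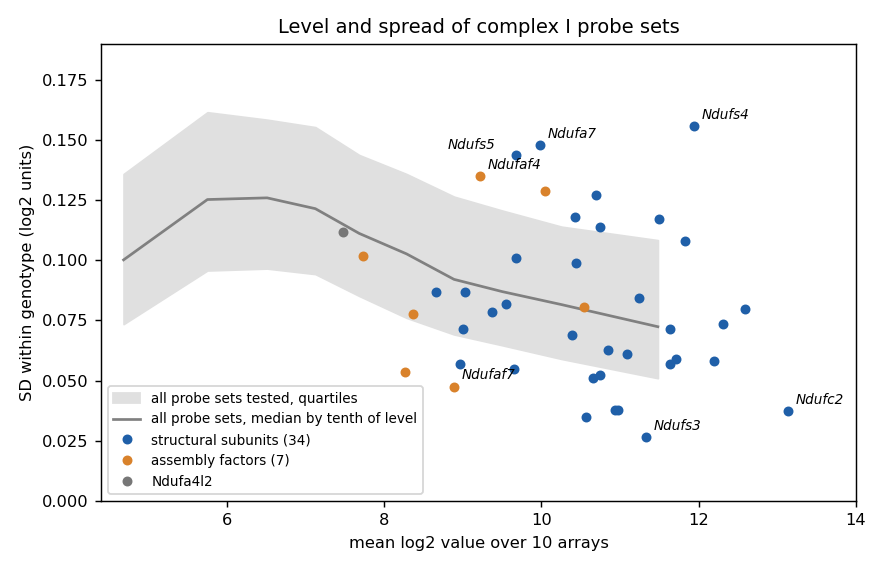
SD within genotype in log2 units (vertical axis) against mean log2 value over the 10 arrays (horizontal axis), with each point a gene. The grey band is the range between quartiles and the grey line the median of all 28944 probe sets, in 10 bins of level. Assembly factors sit to the left of most structural genes, and Ndufs3 (0.0266) and Ndufs4 (0.156) mark the extremes of spread.

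The third comparison asked whether the members varied together from mouse to mouse. Pearson's r was taken over the 10 arrays between deviations from the group means, for every pair of genes, as a description without a test. All pairs share the same 10 arrays. The median r was 0.124 over 561 structural pairs, 0.188 over 21 assembly pairs and 0.139 over 238 mixed pairs. Over all pairs of 19938 genes it was 0.049, and among bright genes 0.055. An r of at least 0.5 was reached by 21.4% of structural pairs, 23.8% of assembly pairs and 22.7% of mixed pairs, against 19.9% of all pairs and 21.6% of bright pairs. Without WT replicate 2 the structural median was 0.178, with 22.3% of pairs over 0.5, the assembly median 0.171 and the mixed one 0.125. The medians were then 0.0078 for all genes and 0.056 for bright genes, with 13.5% and 17.8% over 0.5.

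Within the complex, core pairs had the highest median r (0.269 over 15 pairs, and 0.427 without WT replicate 2). The share of core pairs over 0.5 went the other way, from 40.0% to 26.7%. On Tg replicate 5, 0 of 6 core genes lay above their own mean (mean deviation -0.08). The core median was not taken without that array. Distal membrane arm pairs had a median of 0.143, proximal pairs -0.036 and peripheral accessory pairs -0.056. Without WT replicate 2 these were 0.171, 0.11 and 0.0727, so that both negative medians turned positive. The structural genes with the highest mean r to the other structural genes were Ndufb5 (0.311) and Ndufv2 (0.25), and the lowest was Ndufa1 (-0.118). Among assembly factors Ndufaf5 (0.28) and Ndufaf2 (0.234) were highest and Ndufaf3 (-0.271) lowest. Without WT replicate 2, Ndufaf7 went from a mean r of 0.133 to 0.363 and was the highest, with Ndufaf5 at 0.29 and Ndufaf2 at 0.254.

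The positive structural median depended on Tg replicate 5. The medians over all genes and over bright genes were not taken without that array, so whether they fall as well is not known. Without that array the structural median was -0.0513, with 263 of 561 pairs above 0 in place of 327. Structural genes were low there: 5 of 34 lay above their own mean over the 10 arrays, against 38.9% of bright probe sets, and 10 of 34 had their lowest value on it, against 17.9% of bright and 10.1% of all probe sets. WT replicate 2 held the lowest value of as many structural genes, 10 of 34. The mean deviation of the 34 genes on Tg replicate 5 was -0.062, against -0.022 to 0.034 on the other arrays. The mean log2 value there was 10.72 for complex III (10.76 or more elsewhere) and 12.10 for complex IV (12.14 or more). Complexes II (10.02, with 10.03 or more elsewhere) and V (11.53, with 11.54 or more) were nearly level with the next array. Genes of mitochondrial mass were not lowest there, at 11.09 against 11.02 on WT replicate 2 and 11.06 on Tg replicate 2. Nor were assembly factors without an Nduf name, at 9.02 against 8.96 on Tg replicate 2. ND3 read 13.41 on Tg replicate 5, its lowest value. The 7 Nduf assembly factors averaged a deviation of -0.013 there, and their own range was -0.054 on WT replicate 2 to 0.076 on WT replicate 3. After quantile normalization the structural mean on Tg replicate 5 was -0.031, the lowest of the 10 but close to the -0.028 on WT replicate 4. After median centring it was -0.076, second to WT replicate 2 at -0.088.

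**Figure D3:**
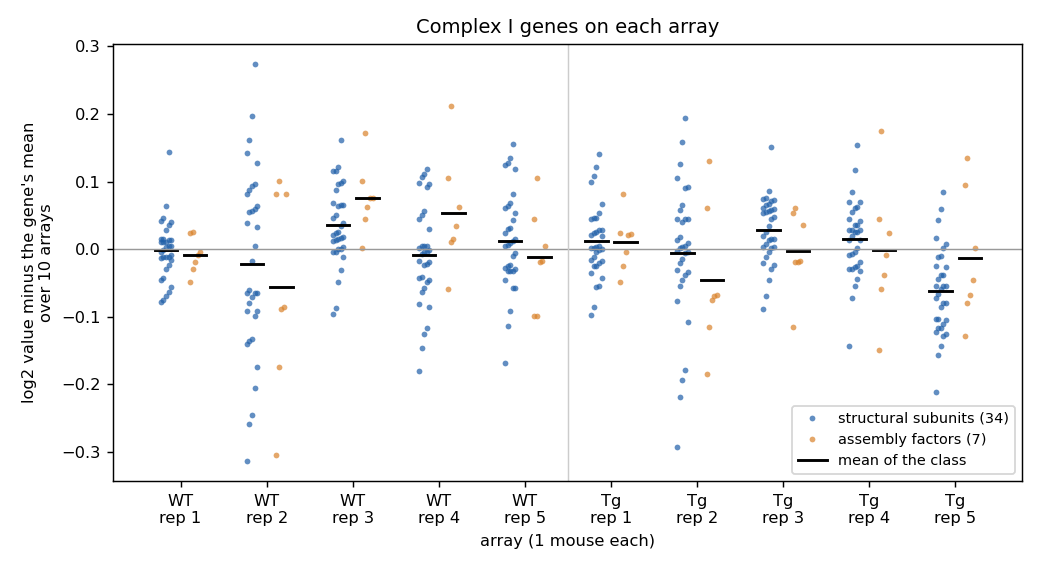
Log2 value minus the gene's own mean over 10 arrays (vertical axis) for each member on each array (horizontal axis), with structural subunits in blue, assembly factors in orange and class means as black bars. Structural genes are lowest as a class on Tg replicate 5 (mean -0.062), and single genes scatter most widely on WT replicate 2.

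**Figure D4:**
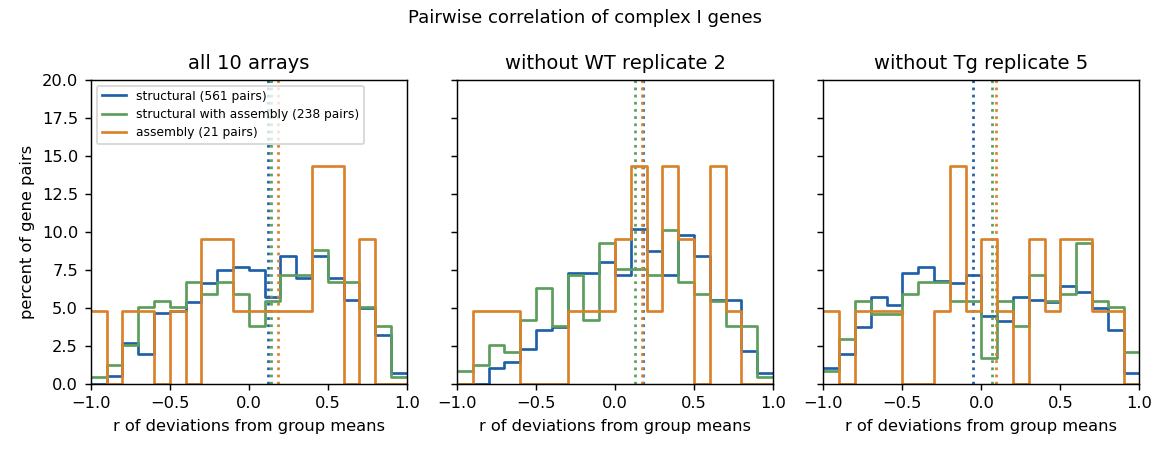
Distribution of pairwise r over structural, assembly and mixed pairs, as the percent of pairs (vertical axis) in each step of r (horizontal axis), with all 10 arrays, without WT replicate 2 and without Tg replicate 5. Dotted lines are medians; the structural median goes from 0.124 to 0.178 and to -0.0513.

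On WT replicate 2, where cerebellar markers were low, single members departed in both directions. There 25 of 42 members had their lowest (13) or highest (12) value of the 10 arrays, against 51.2% of all probe sets and 53.1% of bright ones. Set against the mean of the other 4 WT arrays, 7 members were lower by at least 0.2 log2 units and 3 were higher by as much. This makes 23.8% of members, against 30.9% of bright probe sets and 41.4% of all. The lowest were Ndufs5 (-0.411), Ndufaf1 (-0.366), Ndufs4 (-0.334), Ndufab1 (-0.294) and Ndufaf4 (-0.226). The highest were Ndufa7 (0.324), Ndufa4l2 (0.308) and Ndufs6 (0.201). With 1 such array there is no replicate of this pattern and no test of it, and the part of the low cerebellar markers in it was not tested.

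**Figure D5:**
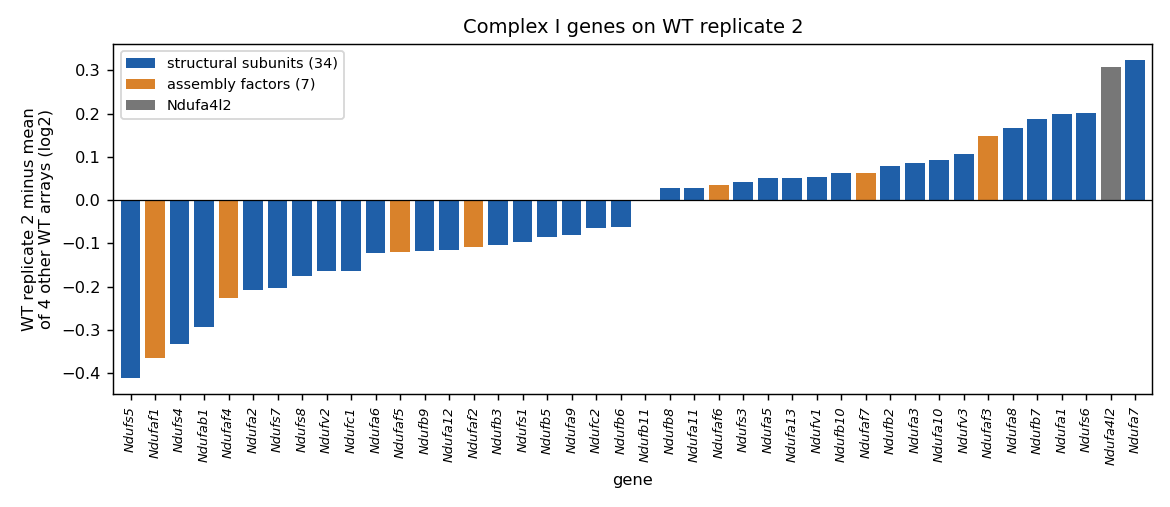
WT replicate 2 minus the mean of the 4 other WT arrays, in log2 units (vertical axis), for each member (horizontal axis) in order. Bars run from -0.411 for Ndufs5 to 0.324 for Ndufa7, and the assembly factors from -0.366 (Ndufaf1) to 0.147 (Ndufaf3).

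Promoters from RefSeq (GRCm38.p6, 250 bases before to 50 after each start) were found for 37 of the 42 genes and searched for 4 motifs of known activators of respiratory genes on both strands. The 37 genes had 39 promoters, and a gene counted if any of its promoters matched. The shares beside them were counted by promoter, not by gene. The NRF1 motif (GCGCA, any base, then GCGC) occurred in 8 of 37 genes (21.6%), 6 of 31 structural and 2 of 6 assembly, against 4.6% of 32851 promoters and 6.38% of those of protein-coding genes. The YY1 motif occurred in 4 genes (10.8%), all structural and all after the start, against 0.852% and 1.21%. The GABP motif ACTTCCGG occurred in 1 gene, Ndufs3 (2.7%), against 3.89% and 5.15%. The ERR motif TCAAGGTCA was in 0 of 37, against 0.423% of all promoters. The 6 windows below, from genes of both classes, are written on the gene's own strand. The NRF1 motif is in capitals and lies wholly before the start. In Ndufa8 and Ndufs6 the motif is on the opposite strand, so the capitals there are its reverse complement.
Ndufa5: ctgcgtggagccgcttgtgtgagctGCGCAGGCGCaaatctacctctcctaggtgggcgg
Ndufa8: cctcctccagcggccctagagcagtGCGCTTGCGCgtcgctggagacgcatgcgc
Ndufa11: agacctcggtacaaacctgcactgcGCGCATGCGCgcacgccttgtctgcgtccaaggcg
Ndufs5: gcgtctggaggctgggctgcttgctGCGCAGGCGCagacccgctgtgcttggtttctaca
Ndufs6: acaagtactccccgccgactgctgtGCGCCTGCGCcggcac
Ndufaf4: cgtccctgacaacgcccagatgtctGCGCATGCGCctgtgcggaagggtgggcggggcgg

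The window of Ndufa5 is chr6:24527682-24527741 on the minus strand, and that of Ndufa8 is chr2:36049339-36049393 on the minus strand. Those of Ndufa11 (chr17:56717677-56717736) and Ndufaf4 (chr4:24897945-24898004) are on the plus strand. Those of Ndufs5 (chr4:123718250-123718309) and Ndufs6 (chr13:73328483-73328523) are on the minus strand. In Ndufa11 and Ndufaf4 the motif reads the same on both strands. These 6 genes did not move as 1 group: on WT replicate 2, for example, Ndufs5 differed from the other WT arrays by -0.411 while for Ndufs6 the difference was 0.201. A match of letters is not evidence of binding.

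For 5 structural genes a second probe set gave a check on the value used. Both probe sets of Ndufs3 differed by less than 0.01 between genotypes (0.0046 and 0.0090). Those of Ndufa11 gave 0.027 and 0.019, those of Ndufab1 0.022 and 0.049, and those of Ndufc1 -0.069 and -0.023. For Ndufb11 the signs were opposite, 0.036 and -0.017, each within its SE of 0. The brighter probe set of Ndufa11 sits, in identifier order, among genes of chromosome 16, while the gene itself is on chromosome 17 and its transcribed pseudogene Ndufa11b on chromosome 16. The lesser probe sets of Ndufc1 and Ndufs3 also sit among genes of another chromosome. Likewise the brighter one of Ndufb11 sits among genes of chromosome 5 and the gene on chromosome X. Which copy these probes match was not tested, so the levels of Ndufa11 and Ndufb11 are uncertain.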

How the data were processed

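The deposited values are log2 expression values that the authors made in Expression Console (Affymetrix, version 1.1.2), per the submitters' processing notes. The settings were not given in the sources used here. They were used without further normalization. Of 35556 rows, 6612 (18.6%) were taken as platform control rows and left out, and 28944 probe sets were tested. The rows left out were chosen by identifier, below the start of the annotated ones, and none is in the platform annotation. Array medians lay between 7.95 and 8.05. Genes came from the platform annotation, with symbols updated through Entrez identifiers to RefSeq GRCm38.p6. Groups came from the sample titles. Tg and WT were compared with limma 3.58.1 in R 4.3.3 (lmFit, eBayes, no covariate), with Benjamini-Hochberg adjustment over all probe sets; single genes also got two-sided exact permutation tests over arrays. Summaries used Python 3.11.15. The limma step was also run on simulated data with 28944 probe sets. Their noise was normal and independent between probe sets, with no array set apart as WT replicate 2 was. More probe sets were changed there than the 10 called in the real data, which loosens the adjusted threshold. The shares called in the simulation may therefore be higher than on the real arrays. It called 84 of 100 probe sets with a true change of 0.5 and 99 of 100 with a true change of 1. Of 28744 simulated probe sets without a change it called 10. The member estimate furthest from 0 was -0.115, for Ndufaf6, and changes as small as that were not simulated. How often the limma step would call such small changes is therefore not known. Named genes followed a rule on lowest p, extreme difference, level, spread and mean r in each class, plus the core subunits. Members, lists and rules were chosen with earlier results of these data known. Alternatives covered normalization, filtering, variance models, weights, the replicate number, probe set choice and leaving out each array. The number of arrays limits the precision.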

Additional observations from a re-analysis of the deposited data

Results flagged for a closer look

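In the named genes and both class means, 3 single arrays lay far from the other 4 of their group by Dixon's criterion, which flags about 1 group in 20 by chance. Ndufb3 was 8.59 on Tg replicate 3, against 8.72 to 8.76 in the other Tg mice. Ndufb5 was 10.96 on Tg replicate 5, against 11.1 to 11.13. Ndufv2 was 12.17 on WT replicate 2, against 12.31 to 12.37 on the other WT arrays. Over all 42 members there were 6 such arrays in 84 groups of 5, of which 3 were WT replicate 2, 2 were Tg replicate 5 and 1 was Tg replicate 3.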

How the results depend on the processing

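No alternative gave a member past the adjusted threshold, and the number of probe sets called stayed between 9 and 11. With the replicate number as a block, 11 probe sets and 0 members were called. The numbers did not pair the arrays: same-numbered arrays correlated between -0.47 and 0.45 in their deviations, and 2 of 5 WT arrays correlated best with their own number. The structural median difference ranged from -0.0182 to 0.00654 with single arrays left out and was 0.00708 after quantile normalization; the assembly median ranged from -0.044 to 0.00904 and was 0.00383. Neither class thus has a settled direction. With probe sets chosen by the chromosome of their neighbours, an alternative chosen after seeing the data, the structural median was -0.0167.

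Covariation depended on the normalization, for which the cause was not tested. Median centring gave a median r of 0.322 for structural, 0.302 for assembly and 0.378 for mixed pairs, while quantile normalization gave 0.0486, 0.0914 and 0.0181. With single arrays left out the structural median r ranged from -0.0513 to 0.178 and the assembly one from 0.087 (without WT replicate 5) to 0.257.

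Of single genes, the sign of an uncalled difference turned under quantile normalization for Ndufaf2 (0.00383), Ndufaf4 (0.0157), Ndufb5 (0.00864) and Ndufs4 (0.00272), and with array weights for Ndufv2 (-0.0121). With single arrays left out, Ndufaf2 ranged from -0.0321 to 0.00799, Ndufaf4 from -0.0549 to 0.0363, Ndufaf5 from -0.044 to 0.0188 and Ndufb5 from -0.022 to 0.0263. Ndufs3 ranged from -0.0093 to 0.013, Ndufs4 from -0.0927 to 0.0155, Ndufs7 from -0.0199 to 0.0495, Ndufs8 from -0.0524 to 0.028 and Ndufv2 from -0.0262 to 0.0357.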
